A study of Mus musculus with 24 samples.

Results

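RNA bound to STAU2 was compared between cerebral cortex taken at E11.5, when the tissue is mostly neuroepithelium, and at E15.5, near the height of neurogenesis. The embryos were of the C57BL/6 strain, and no genotype or treatment other than the stage separates the groups. The features compared were all rows of the authors' peak table that carry a gene symbol and do not lie in intergenic sequence. These are 14292 of 18975 rows and belong to 7967 genes. Each row is a stretch of a transcript under a peak, with its own count in each library, and 3461 genes have 2 or more rows. Of the 24 samples in the series, 6 entered the comparison, namely 3 libraries of RNA pulled down with an anti-STAU2 antibody at E11.5 and 3 at E15.5. The 6 libraries of E13.5 and E17.5 were part of the same fit and are given beside the results where they help to place a change. The labels do not say whether libraries came from separate embryos or from pools, so p-values measure the spread between these libraries. The column names match an immunoprecipitation and its input alike, and a table of peaks was taken to hold the former. Input RNA was not analysed here, so a change in bound RNA mixes the amount of a transcript with the share of it that is bound. The samples are whole tissue, in which fewer cells of a type and less RNA per cell cannot be told apart.

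Staufen proteins bind double-stranded stretches of RNA, most often hairpins in 3' UTRs, and travel with their cargo along microtubules. In neurons STAU2 is known for carrying mRNAs into dendrites. In the dividing cells of the embryonic cortex it is unequally inherited at division, and with it the RNAs it holds. Between the stages compared here, the neuroepithelium turns into radial glia, which divide to give intermediate progenitors and neurons, first those of the deep layers and then those of the upper layers.

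The libraries of the stages differed in composition before any single gene was considered. Gene-row totals were 5370226 to 5616147 counts at E11.5 and 5838544 to 6372132 at E15.5. The 10 highest rows of a library took 59.7% ± 4.30 (SD, n = 3) of these counts at E11.5 and 25.02% ± 2.92 at E15.5. The median row had 29 to 37 counts at E11.5 against 84 to 103 at E15.5. Levels below are CPM, read counts brought to a common library size, after TMM scaling in edgeR, which sets the bulk of rows to an unchanged level. Scaled by the plain gene-row total instead, the median row was shifted up by 1.35 on the log2 scale and the median gene by 1.37. Calls with plain totals numbered 9158 rows higher and 354 lower, so every direction below is relative to the median row, and a fall smaller than this shift stands above 0 under plain totals.

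Of 14101 rows tested with edgeR's quasi-likelihood test, 4408 (31.3%) passed an adjusted p of 0.05, 2302 (16.3%) as higher at E15.5 and 2106 (14.9%) as lower. Summed over the rows of a gene, 3014 of 7873 genes (38.3%) passed, 1552 (19.7%) higher and 1462 (18.6%) lower. All 3 libraries of a stage lay above the 3 of the other in 5960 rows (42.3%) and in 3753 genes (47.7%). With this much movement in the background, a list of genes stands out only by how far its counts lie from these shares. Changes are given as log2 change ± standard error, E15.5 minus E11.5, and levels per stage as mean ± SD over 3 libraries.

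**Figure D1:**
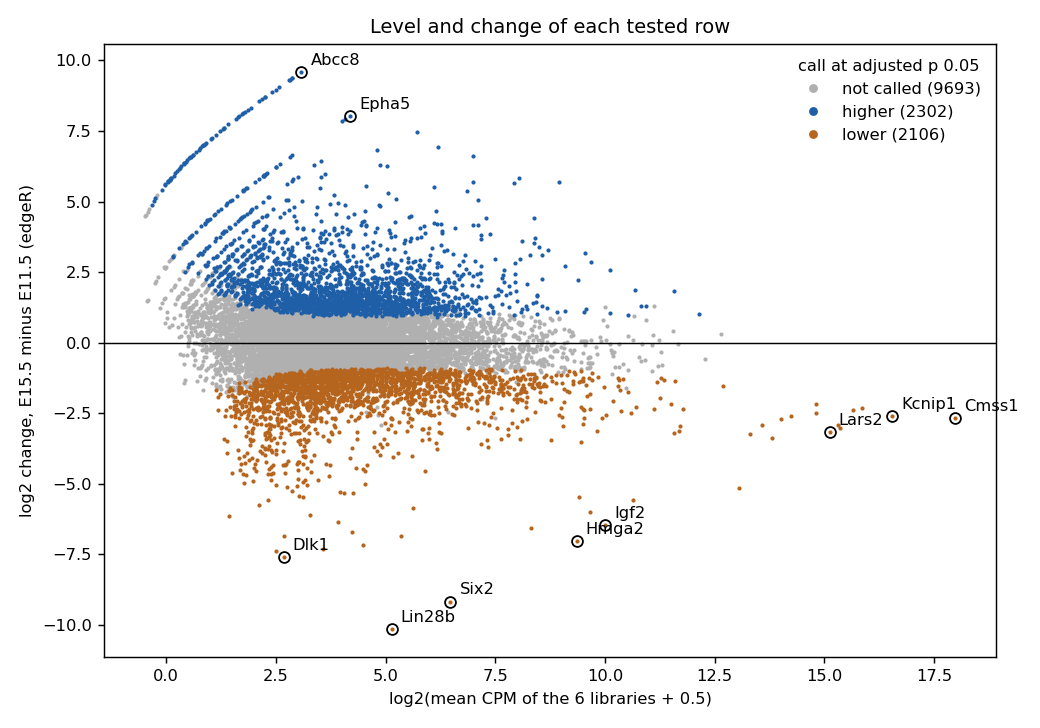
Each point is a tested row, placed by the log2 of its mean CPM over the 6 libraries plus 0.5 (horizontal) and its log2 change from edgeR (vertical), and coloured by its call. The 2302 higher and 2106 lower rows lie on both sides of 0 at most levels, but the rows with the most reads, led by the Cmss1 intron, are lower at E15.5.

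Genes that mark the early neuroepithelium lost nearly all or most of their signal between E11.5 and E15.5. Of 17 such genes on the list, 5 had rows and all 5 fell, with a median log2 change of -2.92 against 0.05 over all genes tested. Under plain totals 4 of the 5 fell, with a median of -1.52. Several of these genes are known parts of the let-7 microRNA circuit: LIN28 proteins block the making of let-7, and let-7 represses mRNAs of the Hmga and Igf2bp families. The microRNAs themselves were not measured here. The let-7 family shares a seed, bases 2 to 8 of the mature strand, shown in capitals in these sequences from RefSeq.
mmu-let-7a-5p: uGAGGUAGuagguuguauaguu
mmu-miR-98-5p: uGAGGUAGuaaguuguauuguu
The match to this seed in a transcript is CTACCTC. It was searched in the sense direction of each row, and bound 3' UTR rows of Hmga2, Hmga1, Igf2bp2 and Arid3a hold it. The bound 3' UTR row of Lin28b does not hold it. Nor do the 3' UTR rows searched for Six2 and for the genes with the largest rises, given below. No window of 30 bases was available around the Arid3a match, so that match is not printed. The capitals mark the match, with 30 bases from the GENCODE transcript on mm10.
Hmga2, chr10:120361680-120361709, minus strand: aaaacacactaCTACCTCttaagtcccagt
Hmga2, chr10:120362976-120363005, minus strand: actcctcaataCTACCTCtgaatgctacag
Hmga1, chr17:27563281-27563310, plus strand: ctgttcacaaaCTACCTCtggacggttgtg
Igf2bp2, chr16:22059462-22059491, minus strand: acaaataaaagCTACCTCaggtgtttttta
A match is a string of letters and no measure of microRNA binding.

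Among called rows of named genes averaging at least 10 CPM at the higher stage, with stages apart, that of Lin28b fell furthest. Lin28b encodes a let-7 processing inhibitor. Its 3' UTR row at chr10:45379210-45379526 held 44.8, 68.4 and 95.4 CPM at E11.5 and 0.122, 0 and 0 CPM at E15.5. With 586 counts at E11.5 and 1 at E15.5, the row was lower by a factor of 1648 (95% interval 295 to 65209.7), with an edgeR adjusted p of 1.2e-09. Hmga2, an architectural chromatin protein of young neural stem cells, fell in all 3 of its rows. The 3' UTR row at chr10:120361449-120361899 held 1144, 1057 and 1691 CPM at E11.5 and 10.9, 8.64 and 10.02 CPM at E15.5 (log2 change -7.04 ± 0.59, adjusted p = 1.8e-08). The second 3' UTR row held 779, 631 and 473 CPM at E11.5 and 6.61, 6.04 and 7.35 CPM at E15.5 (log2 change -6.55 ± 0.51, adjusted p = 7.5e-09), and the 5' UTR row fell by a like amount (log2 change -6.86 ± 0.52, adjusted p = 1.1e-08). No library of E15.5 came near a library of E11.5 in any of these rows.

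The losses of the other early genes were smaller. Igf2bp2, an RNA-binding protein that protects growth-related mRNAs, held 654, 1206 and 959 CPM at E11.5 and 144, 119.5 and 103 CPM at E15.5 in its 3' UTR row (log2 change -2.94 ± 0.40, adjusted p = 8.4e-06), and its 2 coding rows fell as well. Hmga1 held 356, 383 and 455 CPM at E11.5 and 91.9, 79.6 and 58.2 CPM at E15.5 in its single 3' UTR row (log2 change -2.38 ± 0.35, adjusted p = 2.3e-05). Arid3a, an early transcription factor, was at 12.1 ± 0.629 CPM at E11.5 and 2.35 ± 0.586 at E15.5 (log2 change -2.35 ± 0.41, adjusted p = 0.00035). In all 3 genes the lowest E11.5 library stood above the highest E15.5 library. Across all 4 stages in order, Hmga2 averaged 2034, 66.6, 17.2 and 0.533 CPM and was still falling at the last, while Hmga1, at 403, 97.1, 76.2 and 35.4 CPM, had its largest step before E13.5.

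Rows with the let-7 match were also counted over all bound 3' UTR rows with at least 100 bases of sequence. The match lay in 27 of 572 rows that fell (4.72%), in 20 of 791 that rose (2.53%) and in 66 of 2812 that passed neither way (2.35%), which makes 113 of 4175 in all (2.71%). Among coding rows the order of fallen and risen rows was the reverse, with the match in 9 of 401 that fell (2.24%) and 21 of 616 that rose (3.41%). Over all coding rows it lay in 74 of 3227 (2.29%), so the fallen ones were near that share. The seed matches of miR-125 (CTCAGGG), miR-9 (ACCAAAG) and miR-128 (CACTGTG) lay in 2.27%, 2.80% and 4.90% of the fallen 3' UTR rows and in 3.79%, 3.16% and 5.69% of the risen ones. Over all 3' UTR rows the shares were 3.50%, 2.78% and 5.13%. These shares are descriptions, and rows of 1 gene share their transcript.

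Growth factor RNAs were the next group among the largest falls. Igf2, an imprinted growth factor, fell in all 4 of its rows, and its 5' UTR row at chr7:142658401-142658821 held 1304, 2284 and 2529 CPM at E11.5 and 26.1, 35.95 and 7.24 CPM at E15.5 (log2 change -6.47 ± 0.58, adjusted p = 4.7e-08). Igf1, its relative, fell in all 3 rows. The row over its first exon held 10.3, 8.74 and 11.6 CPM at E11.5 and 0, 0 and 0.111 CPM at E15.5, that is 89 counts against 1, lower by a factor of 250.3 (95% interval 43.8 to 9997). Dlk1, an imprinted Notch-like membrane protein, held 13.8, 7.98 and 13.53 CPM at E11.5 and 0, 0 and 0.111 CPM at E15.5 in a coding row, 104 counts against 1, lower by a factor of 293 (95% interval 51.4 to 11663). The stages did not overlap in any of these rows. Mesenchyme markers, given next, fell alongside, and their part in these falls and in those of the early genes was not tested.

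Transcription factors of mesenchyme and of tissues next to the cortex fell just as far. Six2, a factor of cranial mesenchyme, held 198, 156 and 178 CPM at E11.5 and 0.122, 0.412 and 0.334 CPM at E15.5 in its 3' UTR row at chr17:85684255-85685053 (log2 change -9.17 ± 0.57, adjusted p = 1.2e-09). Twist1, which drives mesenchymal fate, held 33.3, 31.5 and 44.7 CPM at E11.5 and 0.367, 0.274 and 0.334 CPM at E15.5 (log2 change -6.72 ± 0.59, adjusted p = 4.4e-08). Of 16 genes that mark meninges and mesenchyme, 11 had rows and 10 fell, with a median log2 change of -3.97. Lum, a proteoglycan of connective tissue, went from 39.3 to 2.50 CPM, and the collagen gene Col1a2 from 67.3 to 7.40 CPM. The eleventh, the matrix gene Dcn, was not called. The summed level of the list per library was 491 to 499.6 CPM at E11.5 and 32.4 to 41.9 CPM at E15.5.

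Markers of other cells and regions behaved unevenly. The 2 erythroid genes with rows of 13 listed, Ermap and Alas2, both fell (log2 change -6.12 ± 0.70, adjusted p = 7.9e-06 and log2 change -5.14 ± 0.66, adjusted p = 2.3e-05), and summed to 29.3 to 33.5 CPM at E11.5 and 0.225 to 0.943 CPM at E15.5. All 3 measured genes of the eye and ganglionic eminence list fell, among them Tfap2b (log2 change -6.40 ± 0.52, adjusted p = 1e-06) and Six3 (log2 change -4.50 ± 0.41, adjusted p = 1.1e-06), from a sum of 91.7 to 93.2 CPM at E11.5 and 2.29 to 3.41 CPM at E15.5. In the choroid plexus list, Ttr, the transthyretin gene, rose from 6.28 to 95.3 CPM (log2 change 3.91 ± 0.36, adjusted p = 1.1e-06), while the hem and eye factor Otx2 fell from 9.54 to 0.365 CPM (log2 change -4.63 ± 0.61, adjusted p = 5.6e-05). Of 6 measured genes of vessels and microglia, Pf4, a platelet and macrophage chemokine, fell and the microglial receptor P2ry12 rose, and the list's median of -0.24 turned to 1.10 when libraries were scaled by plain totals. No marker in these lists was at 0 in all libraries of a stage. What share of the changes in other genes these cells account for was not tested. The cortex itself was in evidence at both stages: the cortical factors Lhx2, Emx1, Emx2 and Pax6 had counts in all 6 libraries, and Lhx2 held 1150.0, 1248 and 984 CPM at E11.5 and 656, 835 and 724 CPM at E15.5 (log2 change -0.61 ± 0.24, adjusted p = 0.056).

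**Figure D2:**
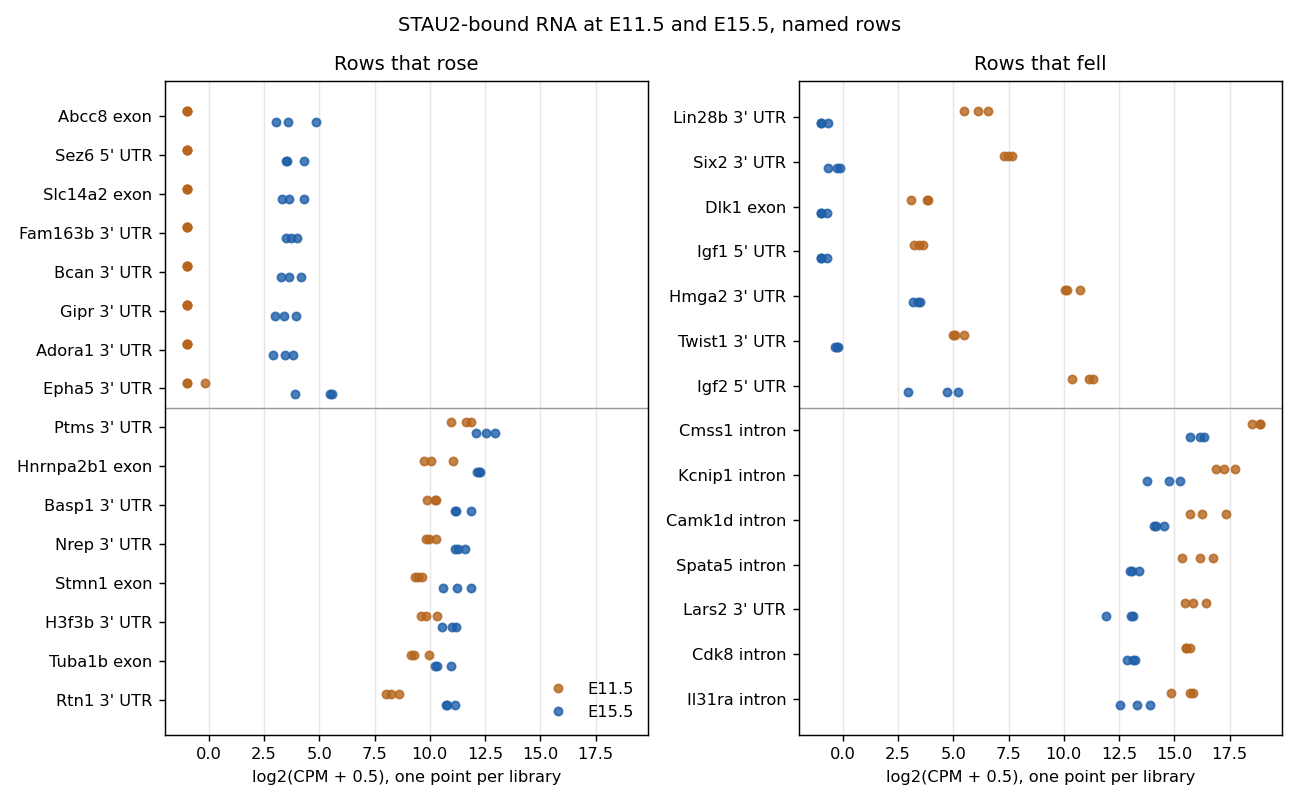
Points give log2(CPM + 0.5) in each of the 3 libraries of E11.5 (brown) and of E15.5 (blue) for the rows with the largest change (above the line) and for the changed rows with the most reads (below it). In the upper rows the stages are far apart, with Lin28b, Dlk1 and Igf1 at or near 0 CPM at E15.5 and 7 of 8 risen rows at 0 CPM at E11.5. Below the line the gaps are narrower on the left than on the right, where the intron rows lie.

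The rows with the largest gains included receptors, channel subunits and matrix proteins. In 7 of the 8 rows with the largest rise, no read was counted in any E11.5 library, so the fold is a lower bound set against 3 counts over the 3 libraries. Abcc8, the sulfonylurea receptor subunit of ATP-sensitive potassium channels, held 0 CPM in all 3 libraries at E11.5 and 11.6, 28.5 and 7.68 CPM at E15.5 in a coding row at chr7:46114614-46115018, at least 44.1-fold higher (edgeR adjusted p = 2.5e-06). Sez6, a neuronal surface protein that shapes dendrites, held 0 CPM in all 3 libraries at E11.5 and 10.8, 11.1 and 19.2 CPM at E15.5 in its 5' UTR row, at least 40.4-fold higher. Other rows of Sez6 had counts at E11.5, and the level of the whole gene is given further on. Bcan, a proteoglycan of the brain's matrix, held 0 CPM in all 3 libraries at E11.5 and 17.4, 9.19 and 12.03 CPM at E15.5 in its 3' UTR row, at least 37.6-fold higher, and its exon row rose with it. The adenosine receptor gene Adora1 was at least 29.2-fold higher, Gipr, a peptide hormone receptor, at least 31.8-fold higher, Fam163b at least 37.5-fold higher and a row of the urea transporter gene Slc14a2 at least 38.4-fold higher. That Slc14a2 row is an exon row in a noncoding stretch. In the eighth row, the 3' UTR of the ephrin receptor Epha5, 1 count stood against 843, with 0, 0.380 and 0 CPM at E11.5 and 44.7, 47.6 and 14.6 CPM at E15.5, which is higher by a factor of 299.7 (95% interval 53.6 to 11852). Over its 2 rows, Epha5 had 18 counts at E11.5 and 2252 at E15.5, a smaller rise (log2 change 5.46 ± 0.50, adjusted p = 1.1e-06). These floors and intervals cover counting error only.

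Genes that most neurons share rose with few exceptions. Of 20 listed, 15 had rows, 13 rose and none fell (Map2 and Nefm did not pass), with a median log2 change of 1.77, beside 19.7% of all genes called higher. Neurod6, a transcription factor of cortical projection neurons, held 12.7, 25.4 and 18.4 CPM at E11.5 and 1428, 701 and 786 CPM at E15.5 in its coding row (log2 change 5.69 ± 0.46, adjusted p = 1.1e-08). L1cam, an adhesion molecule of growing axons, held 11.2, 9.50 and 7.52 CPM at E11.5 and 435, 611 and 391 CPM at E15.5 in its 3' UTR row (log2 change 5.66 ± 0.52, adjusted p = 5.8e-08). Snap25, a core protein of vesicle fusion, rose in all 3 of its rows, and the higher of its 3' UTR rows held 3.24, 4.56 and 3.01 CPM at E11.5 and 70.6, 80.4 and 59.1 CPM at E15.5 (log2 change 4.28 ± 0.40, adjusted p = 9.5e-08). Rbfox3, the NeuN antigen and a splicing factor, rose in all 9 of its rows and as a gene went from 28.7 to 473 CPM (log2 change 4.05 ± 0.31, adjusted p = 2.7e-07). Every E15.5 library was above every E11.5 library for these 4 genes.

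Most measured genes of synapses and dendrites rose as well. Of 14 with rows (25 listed), 11 rose and 1 fell, and the median was 3.03, the same with Lrfn5, which had no counts at E11.5, set at its bound. Camk2b, a calcium-dependent kinase, whose mRNA is among those found in dendrites, had 1 count over the E11.5 libraries and 781 over those of E15.5, with 0, 0 and 0.386 CPM at E11.5 and 46.04, 38.7 and 13.1 CPM at E15.5, which is higher by a factor of 273 (95% interval 48.9 to 10807). At E17.5 it averaged 286 CPM. Syn2, a synaptic vesicle protein, was higher by a factor of 92.7 (95% interval 16.5 to 3676), and Ppfia2, a scaffold of the presynaptic active zone, by a factor of 52.3 (95% interval 14.4 to 434). Shank1, the postsynaptic scaffold, was already present at E11.5 and rose in 4 of 4 rows, with 10.2, 14.03 and 11.2 CPM at E11.5 and 106, 141 and 80.3 CPM at E15.5 (log2 change 3.21 ± 0.29, adjusted p = 1e-06). The exception was Camk2a, the partner kinase of Camk2b and itself a dendritic mRNA, whose single 3' UTR row held 12.8, 14.03 and 13.9 CPM at E11.5 and 6.46, 8.49 and 4.39 CPM at E15.5 (log2 change -1.08 ± 0.37, adjusted p = 0.031), a fall smaller than the shift of the scaling. The Camk2a call was lost when E11.5 replicate 1, 2 or 3, or E15.5 replicate 1 or 3, was left out. In Camk2b the E15.5 libraries were spread widely, but none overlapped with E11.5.

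Ion channels, guidance molecules and the cytoskeleton moved in the same direction. Among 9 ion channel genes with rows of 20, 5 rose and 1 fell (median 2.61): the potassium channel gene Kcnq3 went from 0.772 to 56.3 CPM (log2 change 6.27 ± 0.69, adjusted p = 5.7e-06), the calcium channel gene Cacna1e from 0.850 to 28.1 CPM (log2 change 4.91 ± 0.58, adjusted p = 1.1e-05), and Ryr3, a calcium release channel, was at least 14.9-fold higher, from 0 counts to 128. Scn8a, a sodium channel gene, was the member that fell (log2 change -1.62 ± 0.39, adjusted p = 0.0037), through its 3' UTR row and not its exon row, and no member of the list was called lower under plain totals. Of 15 axon guidance and adhesion genes with rows, 8 rose and 2 fell (median 1.72). When single libraries were left out, 1 to 3 of these genes fell. Dscam, which sets neurite spacing, had 2 counts at E11.5 and 484 at E15.5 and was higher by a factor of 84.7 (95% interval 23.3 to 701), and the cadherin Cdh13 went from 2.18 to 42.4 CPM (log2 change 4.30 ± 0.35, adjusted p = 4.3e-07). The ephrin ligand Efna5 went the other way, with 13.1, 30.3 and 25.1 CPM at E11.5 and 2.07, 1.75 and 2.25 CPM at E15.5 (log2 change -3.47 ± 0.44, adjusted p = 2.1e-05), while its receptor Epha5 rose, as given above. The second to fall was the adhesion gene Chl1, known here from an intron row alone (log2 change -2.64 ± 0.95, adjusted p = 0.037). Of 21 cytoskeleton and transport genes with rows, 15 rose and 1 fell (median 1.65), with Dpysl3 and Crmp1, collapsin response mediators of growth cones, at 183 ± 21.6 CPM at E11.5 and 1216 ± 224 at E15.5 (log2 change 2.73 ± 0.29, adjusted p = 4.8e-06) and 113 ± 13.2 CPM at E11.5 and 495 ± 5.63 at E15.5 (log2 change 2.14 ± 0.24, adjusted p = 6.8e-06), and the tubulin gene Tubb2a at 38.2 ± 16.5 CPM at E11.5 and 250.2 ± 61.7 at E15.5 (log2 change 2.71 ± 0.42, adjusted p = 0.00012). Dst, a linker of filaments, rose too (log2 change 1.72 ± 0.28, adjusted p = 0.00019), and the motor gene Myo10 fell by less than the shift of the scaling (log2 change -0.87 ± 0.23, adjusted p = 0.0082).

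**Figure D3:**
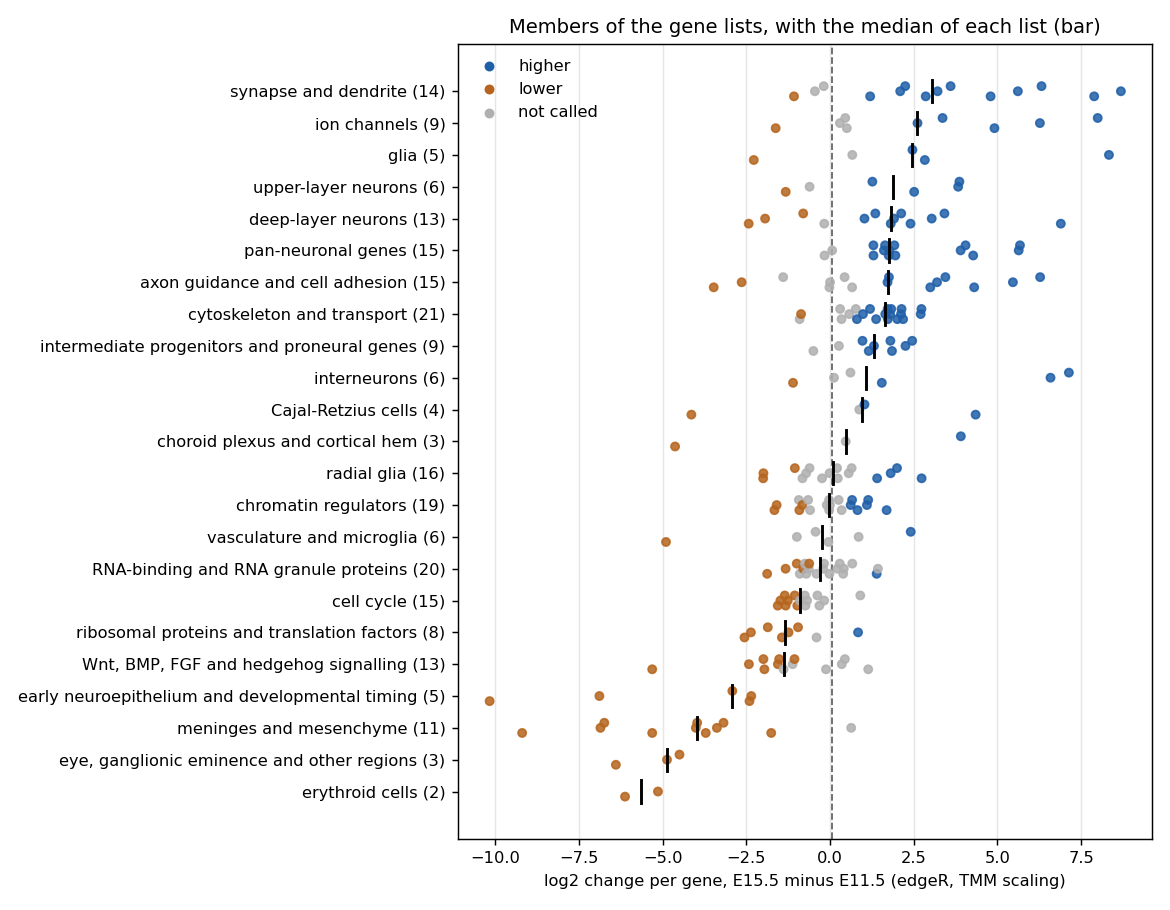
Each point is a tested gene of a list, placed by its log2 change per gene under TMM scaling and coloured by its call, the bar is the list's median, the dashed line is the median of all genes tested at 0.05, and the number of tested genes follows the name. Synaptic, ion channel and neuronal lists lie to the right, while lists of early neuroepithelium, mesenchyme and other regions lie to the left. Scaled by plain totals, all points move right by about 1.37, which takes the medians of the cell cycle, RNA-binding, chromatin, vessel, ribosomal and signalling lists from below 0 to above it.

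Genes of both neuronal layer groups rose, with exceptions in each. Of 13 deep-layer genes with rows, 9 rose and 3 fell (median 1.81). Over all genes tested, 19.7% were higher and 18.6% lower, so the count of falls lies close to the background. When single libraries were left out, 2 or 3 deep-layer genes fell. Nfib, a nuclear factor of radial glia and early-born neurons, rose in 5 of its 6 rows, and an exon row at chr4:82330096-82330500 held 7.95, 18.2 and 17.3 CPM at E11.5 and 208, 459.5 and 116 CPM at E15.5 (log2 change 4.18 ± 0.53, adjusted p = 4.1e-06). Sox5, Lmo3 and Ldb2, transcription factors and cofactors of deep-layer neurons, rose with log2 changes of 1.81 ± 0.24, 2.13 ± 0.29 and 1.91 ± 0.27. The 3 that fell are transcription factors or corepressors of the same layers, Etv1 (log2 change -2.43 ± 0.36, adjusted p = 9.6e-05), Foxp2 (log2 change -1.94 ± 0.34, adjusted p = 0.00036) and Tle4, the last by less than the shift of the scaling (log2 change -0.80 ± 0.30, adjusted p = 0.047). Under plain totals 1 of the 3 falls was called. Of 6 upper-layer genes with rows, 4 rose and 1 fell (median 1.89). Mdga1, a surface protein of upper-layer neurons, held 9.72, 7.60 and 4.89 CPM at E11.5 and 89.00, 132 and 110.5 CPM at E15.5 in its 3' UTR row (log2 change 3.89 ± 0.40, adjusted p = 3.7e-07). Dok5, an adaptor protein of upper-layer neurons, rose too (log2 change 3.83 ± 0.30, adjusted p = 2.8e-07). Cux1, another upper-layer factor that progenitors also make, fell (log2 change -1.32 ± 0.27, adjusted p = 0.0013), but with plain totals it stood at 0.05.

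Cajal-Retzius and interneuron genes were split. Reln, the secreted guide of cortical layering, held 5.08, 1.14 and 0.772 CPM at E11.5 and 41.5, 47.7 and 63.1 CPM at E15.5 (log2 change 4.35 ± 0.46, adjusted p = 4.2e-06), while Ebf2, another marker of Cajal-Retzius cells, held 20.3, 46.3 and 23.5 CPM at E11.5 and 1.95, 1.75 and 1.35 CPM at E15.5 (log2 change -4.14 ± 0.42, adjusted p = 2.7e-06). Tbr1, a deep-layer and Cajal-Retzius factor, rose as a gene (log2 change 1.03 ± 0.25, adjusted p = 0.0043), although its rows disagreed, as described further on. Calb2 did not pass (log2 change 0.87 ± 0.50, adjusted p = 0.18). Among interneuron genes, which reach the cortex by migration from the ganglionic eminences, 3 of 6 rose: Npy had 1 count at E11.5 and 471 at E15.5 and was higher by a factor of 165 (95% interval 29.4 to 6523), Sst held 2.39, 1.14 and 4.24 CPM at E11.5 and 229, 413 and 105 CPM at E15.5 (log2 change 6.58 ± 0.60, adjusted p = 1e-06), and Gad1, which makes GABA, from 1.69 to 5.09 CPM (log2 change 1.55 ± 0.41, adjusted p = 0.0073). Dlx2, the factor of their birthplace, fell (log2 change -1.11 ± 0.24, adjusted p = 0.0021), with the value turning to 0.26 under plain totals. The summed interneuron list was at 154 to 196 CPM at E11.5 and 239.8 to 584 CPM at E15.5, and most of the level and spread at E15.5 was Sst.

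Relative to the median gene, radial glia genes went both ways and most proneural genes rose. Of 16 radial glia genes with rows, 4 rose, 3 fell and 9 did not pass (median 0.10). Over all genes tested, 19.7% were higher and 18.6% lower, so these counts lie close to the background. With plain totals 11 of the 16 rose and none fell (median 1.46). Notch2 and Fabp7, a receptor and a lipid carrier of radial glia, rose (log2 change 2.73 ± 0.31, adjusted p = 7.2e-06 and log2 change 1.81 ± 0.31, adjusted p = 0.00033), while the hedgehog effector Gli3 and the patterning factor Emx2 fell (log2 change -1.99 ± 0.28, adjusted p = 5.8e-05 and log2 change -2.0 ± 0.31, adjusted p = 0.00014). Under plain totals Gli3 and Emx2 no longer passed, at -0.60 and -0.64. Pax6 stood at 58.3, 169 and 74.9 CPM at E11.5 and 89.8, 288 and 66.9 CPM at E15.5 (log2 change 0.56 ± 0.52, adjusted p = 0.42) and Sox2 at 19.1, 31.1 and 19.3 CPM at E11.5 and 15.96, 7.95 and 15.2 CPM at E15.5 (log2 change -0.82 ± 0.44, adjusted p = 0.15), so that the stages overlapped in Pax6 but not in Sox2. Of 9 intermediate progenitor and proneural genes with rows, 7 rose and none fell (median 1.31). Eomes, the defining factor of intermediate progenitors, held 68.7, 50.4 and 53.3 CPM at E11.5 and 135, 89.7 and 159.7 CPM at E15.5 (log2 change 1.16 ± 0.26, adjusted p = 0.0026). Gadd45g, Neurod1, Nhlh1 and the Notch ligand Dll3 rose with log2 changes of 2.45 ± 0.27, 2.25 ± 0.32, 1.80 ± 0.35 and 1.85 ± 0.26. Of 5 glial genes with rows (12 listed), 3 rose and 1 fell (median 2.46): Bcan had 1 count at E11.5 and 1069 at E15.5, Nfia, which opens the way to gliogenesis, rose from 52.7 to 291 CPM (log2 change 2.46 ± 0.32, adjusted p = 2.7e-05), and Sparcl1 from 2.36 to 16.8 CPM (log2 change 2.83 ± 0.40, adjusted p = 5.2e-05). Olig2, the oligodendrocyte lineage factor, fell from 4.07 to 0.815 CPM (log2 change -2.28 ± 0.57, adjusted p = 0.0052), a call that was lost without the second E11.5 library (log2 change -1.60, adjusted p = 0.053) and under plain totals (-0.90).

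Genes of growth and translation fell relative to the median gene. Of 8 ribosomal protein and translation factor genes with rows, 6 fell and 1, the helicase gene Eif4a1, rose (log2 change 0.84 ± 0.25, adjusted p = 0.014), with a median of -1.34. Under plain totals 2 rose and 2 fell, and the median stood at 0.04. Pabpc1, the poly(A)-binding protein, fell in 7 of 7 rows, and the exon row at chr15:36605287-36605824 held 4080.0, 7356 and 6367 CPM at E11.5 and 983, 657 and 685 CPM at E15.5 (log2 change -2.94 ± 0.39, adjusted p = 7.9e-06). Rplp1, a protein of the ribosomal stalk, held 3613, 3150.1 and 4468 CPM at E11.5 and 1096, 399 and 689 CPM at E15.5 (log2 change -2.36 ± 0.41, adjusted p = 0.00033). Rps23 and Rpl13 also fell (log2 change -1.86 ± 0.34, adjusted p = 0.00044 and log2 change -1.44 ± 0.29, adjusted p = 0.001), but did not pass under plain totals, at -0.46 and -0.08. Ribosomal protein genes have many near-identical pseudogenes, and how reads with several matches were counted is not given in the sources used here, so these values are uncertain.

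Cell cycle genes fell less deeply. Of 15 with rows, 7 fell and none rose, with a median of -0.90 that turned to 0.48, with 5 rises and no falls, under plain totals. Cenpe, a kinetochore motor, held 27.8, 34.9 and 26.6 CPM at E11.5 and 9.99, 8.35 and 13.52 CPM at E15.5 (log2 change -1.48 ± 0.30, adjusted p = 0.0012), and stood at -0.10 under plain totals. Bub1b, Tpx2 and Kif11, all proteins of the mitotic checkpoint or spindle, fell with log2 changes of -1.33 ± 0.28, -1.05 ± 0.23 and -1.35 ± 0.32, and were at 0.06, 0.32 and 0.02 under plain totals. Genes of the Wnt, BMP, FGF and hedgehog signals fell as well, relative to the median gene. Of 13 with rows, 7 fell and none rose, with a median of -1.39. Under plain totals 4 rose and 2 fell, and the median stood at 0.02. The ligand genes Bmp4 and Bmp7 fell furthest: Bmp4 held 33.2, 22.4 and 34.3 CPM at E11.5 and 0.974, 0.674 and 0.563 CPM at E15.5 (log2 change -5.31 ± 0.69, adjusted p = 2.6e-05) and Bmp7 28.7, 38.3 and 67.1 CPM at E11.5 and 8.16, 8.76 and 7.998 CPM at E15.5 (log2 change -2.42 ± 0.32, adjusted p = 3e-05). Smo, the hedgehog signal transducer, fell as well (log2 change -1.56 ± 0.26, adjusted p = 0.00022), though not under plain totals (-0.18). Bmp4 is also a marker of the mesenchyme list, whose summed level is given above.

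Genes of RNA-binding proteins and chromatin regulators went both ways relative to the median gene. Stau2, the mRNA of the precipitated protein, held 109.7, 123 and 67.9 CPM at E11.5 and 79.7, 106 and 112 CPM at E15.5 over its 6 rows (log2 change -0.02 ± 0.26, adjusted p = 0.97), and the stages overlapped, whereas under plain totals it was higher by 1.34. Stau1, its paralogue, did not pass either (log2 change 0.39 ± 0.28, adjusted p = 0.29), and stood at 1.79 under plain totals, past the threshold. Of 20 RNA-binding genes with rows, 5 fell and 1 rose, with a median of -0.30 that turned to 1.07 under plain totals, where 13 rose and none fell. The paralogous splicing factors Nova1 and Nova2 went opposite ways: Nova1 held 258, 189 and 306 CPM at E11.5 and 78.9, 59.4 and 66.5 CPM at E15.5 (log2 change -1.88 ± 0.28, adjusted p = 9.4e-05), and Nova2 61.2, 80.00 and 68.7 CPM at E11.5 and 184, 208 and 159 CPM at E15.5 (log2 change 1.39 ± 0.24, adjusted p = 0.00028). With plain totals Nova2 was still higher, at 2.77, while Nova1 no longer passed, at -0.50. Ago2, the slicer of the microRNA machinery, and Fmr1, the fragile X protein gene, fell (log2 change -1.33 ± 0.27, adjusted p = 0.0011 and log2 change -0.99 ± 0.27, adjusted p = 0.0082), but were at 0.05 and 0.40 under plain totals. Of 19 chromatin genes with rows, 6 rose and 4 fell (median -0.03), while under plain totals 13 rose and none fell (median 1.36). The shares over all genes tested were 19.7% higher and 18.6% lower. Chd3, Smarca4 and Kmt2a, remodellers and a methyltransferase, rose (log2 change 1.69 ± 0.24, adjusted p = 5.5e-05, log2 change 1.10 ± 0.22, adjusted p = 0.00093 and log2 change 1.14 ± 0.24, adjusted p = 0.0014), and the Polycomb subunit Suz12 fell (log2 change -1.66 ± 0.29, adjusted p = 0.00031), at -0.27 under plain totals.

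Among risen rows with the most reads were RNAs of the growth cone and of neuronal membranes. Rtn1, a reticulon of neuronal endoplasmic reticulum, held 261, 388 and 301 CPM at E11.5 and 2285, 1738 and 1695 CPM at E15.5 in its 3' UTR row (log2 change 2.59 ± 0.38, adjusted p = 2.7e-05). Stmn1, a microtubule-destabilising stathmin, held 703, 641 and 797 CPM at E11.5 and 3773, 1566 and 2381 CPM at E15.5 (log2 change 1.85 ± 0.37, adjusted p = 0.00052), and Hnrnpa2b1, an RNA carrier and splicing regulator, 2126, 1050.2 and 844 CPM at E11.5 and 4835, 4902 and 4447 CPM at E15.5 in a coding row (log2 change 1.82 ± 0.47, adjusted p = 0.0052). The 5 other rows of this kind rose by less, with log2 changes of 1.00 for H3f3b, 1.02 for Ptms, 1.04 for Tuba1b, 1.29 for Basp1 and 1.30 for Nrep. Each of these 5 lost its call when 1 or another library was left out, with adjusted p up to 0.19 for Tuba1b without the first E15.5 library.

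The fallen rows with the most reads were nearly all in introns. The intron row of Cmss1, at chr16:57391299-57391733, held 370690.0, 488359 and 484012 CPM at E11.5 and 53774, 82265 and 73629 CPM at E15.5 (log2 change -2.68 ± 0.35, adjusted p = 5.2e-06), which makes it the highest row of every library compared. A row for the opposite strand covers the same peak. Intron rows of Kcnip1 (log2 change -2.61 ± 0.40, adjusted p = 4e-05) and Cdk8 (log2 change -2.51 ± 0.35, adjusted p = 1.3e-05) fell by similar factors, as did those of Camk1d, Spata5 and Il31ra. The Cdk8 row, in a gene for a kinase of the Mediator complex, held 47830.1, 46592 and 52857 CPM at E11.5 and 9685, 7356 and 8841 CPM at E15.5. The exception was the 3' UTR row of Lars2, the mitochondrial leucyl-tRNA synthetase, at 59185, 46347 and 87158 CPM at E11.5 and 8496, 3790.2 and 9022 CPM at E15.5 (log2 change -3.18 ± 0.42, adjusted p = 7.1e-06). The named rows fell by log2 values between -3.18 and -2.18. Under plain totals the Il31ra row no longer passed, at -0.82.

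By location, intron rows held 61.1% ± 4.17 (SD, n = 3) of all gene-row counts in the E11.5 libraries and 25.9% ± 3.09 in those of E15.5, and 3' UTR rows 19.3% ± 2.33 and 39.7% ± 1.57. Both gaps were larger than the spread between libraries, and the exact two-sided permutation p of 0.1 is the smallest that 3 against 3 libraries can give. Without the single highest row the intron shares were 49.2% ± 4.88 and 18.3% ± 2.14. Counted per row rather than per read, 41 of 467 tested intron rows rose and 112 fell (8.78% and 23.98%), beside 16.3% and 14.9% of all rows. In 3' UTR rows 1225 of 6640 rose and 870 fell, in 5' UTR rows 152 of 1126 rose and 240 fell, and in exon rows 884 of 5868 went each way.

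Rows of 1 gene can be compared with each other, and the scaling between libraries does not shift that comparison. In 81 of 3414 genes with 2 or more tested rows (2.37%), the rows changed by different amounts (edgeR diffSpliceDGE, adjusted p under 0.05). An intron row was among them in 44 genes, and in 34 of these every intron row lay below every other row. Over the 158 tested genes with an intron row and another row, the intron mean was lower in 98, with a median gap of -0.57. Kcnip1, a potassium channel partner, shows the pattern: its intron row fell (log2 change -2.61 ± 0.40, adjusted p = 4e-05), while its 3' UTR row held 14.7, 22.4 and 16.9 CPM at E11.5 and 54.8, 81.1 and 30.4 CPM at E15.5 (log2 change 1.62 ± 0.41, adjusted p = 0.0041) and its coding row rose by 1.71 ± 0.40. The gene-level adjusted p was 1.6e-13. In Zswim8, part of a ubiquitin ligase that clears Argonaute, the intron row held 7.66, 5.32 and 4.13 CPM at E11.5 and 0, 0.274 and 0.557 CPM at E15.5 (log2 change -4.24 ± 0.76, adjusted p = 0.00021) and an exon row 3.83, 3.42 and 3.76 CPM at E11.5 and 20.2, 20.6 and 13.47 CPM at E15.5 (log2 change 2.29 ± 0.39, adjusted p = 0.00011).

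The other 37 genes differed among their exon and UTR rows alone. In Cep295, a centriole gene, a single coding row at chr9:15326147-15326552 held 9.72, 6.84 and 12.8 CPM at E11.5 and 203, 108 and 122 CPM at E15.5 (log2 change 3.88 ± 0.45, adjusted p = 1.4e-06), while none of the other 5 rows passed. In Bcl7a, a subunit of chromatin remodelling complexes, 4 rows rose, such as the 3' UTR row with 21.5, 20.5 and 25.9 CPM at E11.5 and 88.6, 86.2 and 96.5 CPM at E15.5 (log2 change 2.0 ± 0.35, adjusted p = 0.00018), and the row at chr5:123356084-123356400 fell, with 3.24, 4.18 and 5.26 CPM at E11.5 and 0.979, 0.823 and 0.223 CPM at E15.5 (log2 change -2.62 ± 0.64, adjusted p = 0.0032). Tbr1 had an exon row in a noncoding stretch that fell (7.07, 8.74 and 5.26 CPM at E11.5 and 1.71, 1.65 and 1.002 CPM at E15.5, log2 change -2.26 ± 0.50, adjusted p = 0.0013) and a 3' UTR row that rose (50.4, 61.9 and 42.5 CPM at E11.5 and 115, 117 and 127 CPM at E15.5, log2 change 1.22 ± 0.34, adjusted p = 0.0085). In Ilf2, a double-stranded RNA-binding protein gene, a noncoding exon row fell by 2.76 on the log2 scale and the 3' UTR row held 257, 273 and 127 CPM at E11.5 and 352, 442 and 448 CPM at E15.5 (log2 change 0.92 ± 0.37, adjusted p = 0.06). Nisch rose in 3 coding rows and fell in a row that the table places in a 3' UTR some distance away (log2 change -1.37 ± 0.43, adjusted p = 0.018). Opposite calls among the rows were found in 23 of the 81 genes. Which isoforms or overlapping transcripts the rows come from was not tested.

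**Figure D4:**
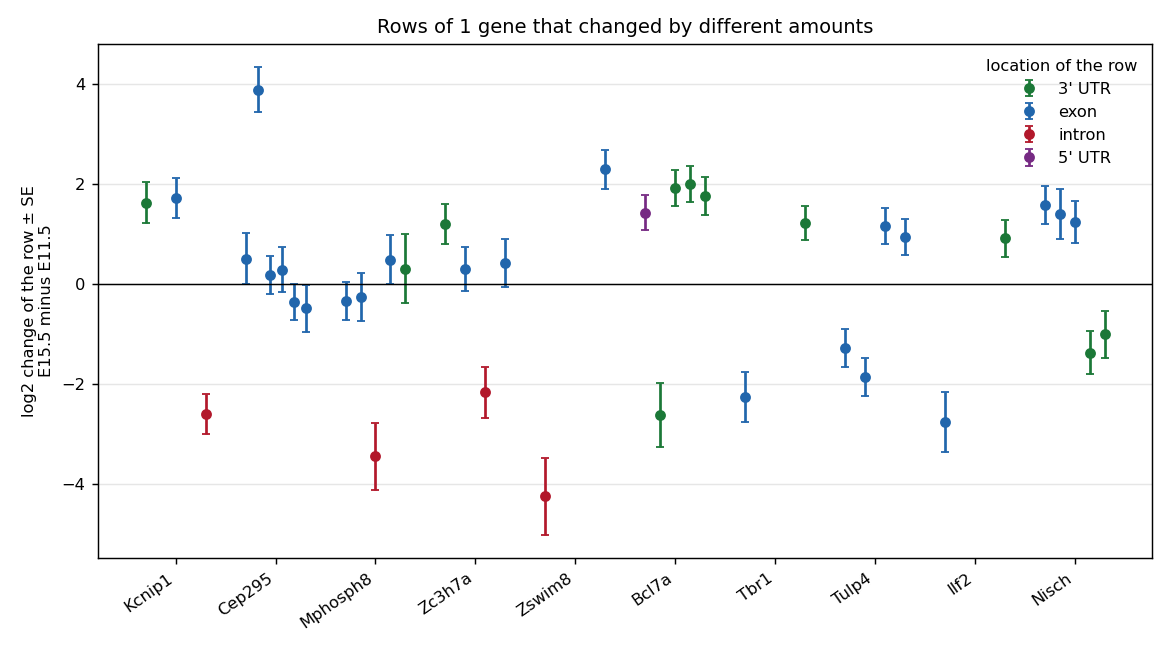
Points are the tested rows of 10 genes, in order of position, with their log2 change from E11.5 to E15.5 and its standard error, coloured by location. The intron rows of Kcnip1, Mphosph8, Zc3h7a and Zswim8 lie between -4.24 and -2.16, below the other rows of their genes, and a single exon row of Cep295 lies at 3.88.

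The level at E13.5 was compared with the midpoint of the E11.5 and E15.5 levels. Past the threshold, 122 rows (0.865%) were higher at E13.5 than this midpoint on the log2 scale and 9 (0.0638%) lower, in a contrast that rests in part on the libraries of the comparison above. A row that did not pass was not thereby shown to lie at its midpoint: the Cmss1 intron row changed by -2.13 up to E13.5 and by -0.55 after it, and the Rtn1 row by 2.13 and 0.46. Ttr stood out above the midpoint: its 3' UTR row averaged 1.92, 184, 31.8 and 0.868 CPM at the 4 stages in order (4.54 ± 0.35 off the midpoint, adjusted p = 1.9e-08). The 5' UTR row of Sez6 averaged 0, 20.5, 13.7 and 5.41 CPM (adjusted p = 0.0006), with 0 counts at E11.5, while the gene over all its rows averaged 6.31, 276, 302 and 93.9 CPM. Neurod6, with 19.1, 753, 968 and 769.8 CPM as a gene, had reached most of its E15.5 level by E13.5. Below the midpoint were factors of the ventral forebrain and of mesenchyme. A coding row of Dlx2 averaged 14.3, 2.29, 9.63 and 20.8 CPM (-2.36 ± 0.41 off the midpoint, adjusted p = 0.0023), so that it was lowest at E13.5. Six3 averaged 42.2, 1.24, 1.88 and 5.26 CPM (-2.83 ± 0.42 off the midpoint, adjusted p = 0.00054). Prrx2 and Meis1 averaged 17.8, 0.999, 0.963 and 0.622 CPM and 11.1, 2.11, 5.06 and 3.62 CPM. Without the first E13.5 library the number of rows off the midpoint was 64, without the third 87.

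**Figure D5:**
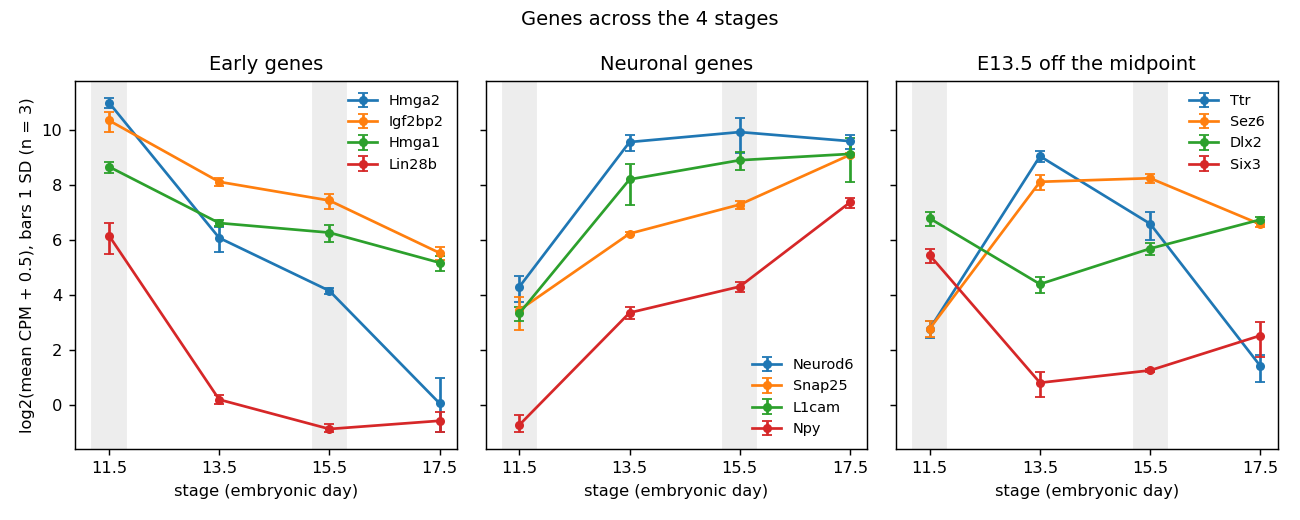
Lines give the log2 of the mean CPM per gene plus 0.5 at the 4 stages, with bars of 1 SD over 3 libraries and the compared stages shaded. Hmga2, Igf2bp2, Hmga1 and Lin28b decline from E11.5, Neurod6, Snap25, L1cam and Npy climb, Ttr peaks at E13.5, Sez6 is by then close to its E15.5 level, and Dlx2 and Six3 are lowest there.

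Because STAU2 binds paired RNA, base composition and predicted folding were compared between rows that rose and fell, on the 11210 tested rows with at least 100 bases of exonic GENCODE sequence. These are properties that the comparison did not use, and they are given as descriptions. Risen 3' UTR rows had a median GC content of 48.1%, fallen ones 42.2% and uncalled ones 44.3%. The minimum free energy per base from RNAfold followed: -0.261, -0.222 and -0.245 kcal/mol, where a lower value is a stabler fold. Coding rows showed the same order, with GC of 56.6%, 50.8% and 53.3% and energies of -0.281, -0.235 and -0.254 kcal/mol per base. In 5' UTR rows, with 48 risen and 60 fallen, the order of risen and fallen rows was the reverse. Their GC was 60.8%, 65.4% and 63.4%, and their energies were -0.319, -0.369 and -0.344 kcal/mol per base. Within 3' UTR rows of 45% to 55% GC, the energies were -0.284 for risen, -0.265 for fallen and -0.285 for uncalled rows, so risen rows lay with the uncalled ones at matched GC. In coding rows of that range they were -0.251, -0.229 and -0.242. The longest uninterrupted predicted helix had a median of 9 base pairs in 3' UTR rows of all 3 kinds and 7 in coding rows.

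Predicted helices are shown for 3 changed coding rows, as examples of what such paired stretches look like. They were taken from rows with at least 100 bases within a single coding exon, and the coding rows of Abcc8 and Dlk1, which changed more, fall short of that length. Npy, a neuropeptide, rose, and Igf1 and Fndc3c1 fell. The arms of the longest helix with a span of at most 100 bases are in capitals, on mm10, in the direction of the transcript. The medians above were taken without this limit on the span.
Npy, chr6:49823669-49823698, plus strand: TCTGGCTgaggggtacccctccaAGCCGGA
Igf1, chr10:87913646-87913693, plus strand: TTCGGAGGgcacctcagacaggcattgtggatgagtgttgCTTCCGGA
Fndc3c1, chrX:106447484-106447502, minus strand: TTCTCCagttcaaGGGGAA
The Npy row had 1 count at E11.5 and held 0.295, 0 and 0 CPM at E11.5 and 14.3, 11.7 and 14.4 CPM at E15.5, which is higher by a factor of 118 (95% interval 20.98 to 4662). The Igf1 row held 34.8, 49.8 and 45.5 CPM at E11.5 and 0.367, 0 and 0.445 CPM at E15.5 (log2 change -7.16 ± 0.56, adjusted p = 7.8e-09), and the Fndc3c1 row 39.5, 29.6 and 24.8 CPM at E11.5 and 0.612, 0.274 and 1.34 CPM at E15.5 (log2 change -5.33 ± 0.51, adjusted p = 1.1e-07). The helices have 7, 8 and 6 base pairs, and their binding by STAU2 was not tested.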

How the data were processed

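RNA was immunoprecipitated with STAU2 from cortex at 4 embryonic stages, 3 libraries each, and sequenced. The authors deposited raw counts per library for each row of a peak table, with a peak score, a location and a gene symbol. Per the submitters' processing notes the tools include HOMER 4.10 and the build is mm10 (GRCm38), while for the aligner and for multiply matching reads no method is given in the sources used here. The deposited counts are whole numbers, and the authors' peak score served only as a stricter selection of rows. Rows that are intergenic or lack a symbol (4513 and 170) were left out, because the intergenic rows hold only even counts and 605 of them are exactly double a gene row over the same peak.

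Counts were tested with edgeR 4.0.16 in R 4.3.3 (TMM, filterByExpr, quasi-likelihood F test, Benjamini-Hochberg at 0.05), with all 12 libraries in 1 fit, per row and summed per gene, and with diffSpliceDGE between rows of a gene. TMM factors were 0.490 to 0.604 at E11.5 and 1.25 to 1.41 at E15.5. Every adjusted p comes from these fits over all rows or genes. The standard error is the log2 change over the square root of F. For rows or genes with 0 counts at a stage the fold is a bound against 3 counts over the stage, and with 1 to 3 counts a ratio with an exact 95% interval. Plain totals means scaling by gene-row totals, without TMM. Sequences came from GENCODE transcripts (vM21, GRCm38) and RefSeq (GRCm38.p6), and were folded with RNAfold 2.7.2. Scripts were tested on simulated data. Alternatives covered scaling, DESeq2 1.42.0, filters, a replicate block, rows kept and each library left out.

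Members, lists and the 23 gene groups were chosen with earlier results of these data known, and their counts are descriptions. Rows named are the 8 largest rises and falls (stages apart, at least 10 CPM on average at the higher stage), the 8 called rows of each direction with the most reads, and the 4 rows farthest above and below the E13.5 midpoint. Genes named are the 4 list members with the smallest p, the 6 with the smallest p for rows that differ, and a few markers. Some genes that these rules select are not reported here. The members that went against their list (such as Camk2a, Scn8a, Chl1, Myo10, Foxp2, Tle4, Etv1, Eif4a1), those that did not pass, single rows shown for a gene, Arid3a, Bcl7a, Tbr1, Ilf2 and Nisch rows were chosen after their values were seen.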

Additional observations from a re-analysis of the deposited data

How the results depend on the processing

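Scaling decided the balance of directions. With gene-row totals, 9158 rows and 5479 genes rose and 354 rows and 241 genes fell. With totals over every peak these were 9109, 5459, 341 and 237, and rows with E13.5 off the midpoint of E11.5 and E15.5 numbered 1373 and 1630 by the 2 scalings. Under these 2 scalings in turn, 8 named values changed sign, to 0.052 and 0.046 for Cux1, 0.26 and 0.27 for Dlx2, 0.062 and 0.079 for Bub1b, 0.32 and 0.34 for Tpx2, 0.021 and 0.040 for Kif11, 0.051 and 0.054 for Ago2, 0.40 and 0.42 for Fmr1, and 1.34 and 1.36 for Stau2. Among rows with a peak score at or above the median, 1282 rose and 1157 fell (928 and 866 genes), and 28 genes had rows that differed, with fewer rows tested. Without intron rows 38 genes did, all among the 81, and the intron share gap without the highest row was -30.95 points. DESeq2 called 2365 rows higher and 2391 lower. Leaving out each library gave 1780 to 2331 rows risen, 1628 to 2155 fallen, 1266 to 1562 genes risen, 1189 to 1478 fallen, 64 to 82 genes with differing rows, 64 to 159 rows off the midpoint, and share gaps of -37.5 to -33.5 points for introns and 19.5 to 21.7 for 3' UTRs. Of 117 named calls, 94 held in every setting that tested them, and 111 in every such setting outside the 2 scalings by totals. The exceptions outside those scalings were Ptms, Basp1, Nrep, H3f3b, Tuba1b and Olig2. A result missing from a setting was not counted against it, and of 126 named results 98 were compared in the peak-score setting. Calls of members named for going against their list, such as Camk2a, are not among the 117. Leaving out the 10 highest rows (2303 rose, 2107 fell) or rows sharing a peak with the other strand (2165 and 2077) was added after seeing the data.

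With the replicate number as a replicate block, 2521 rows rose and 2354 fell, 94 genes had differing rows and 227 rows lay off the midpoint. Same-numbered libraries of both stages had correlated deviations of -0.18, 0.39 and -0.14, so the numbers were not taken as pairs. Across numbers, E11.5 replicate 1 with E15.5 replicate 3 gave 0.49 and replicate 3 with replicate 1 gave 0.35, and the remaining combinations were negative. Rows with few counts at a stage are limited by depth, and their folds are bounds or wide intervals.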

Other observations

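Some genes that rose between E11.5 and E15.5 went on to rise in the cortex of E17.5, and others turned back. The genes here were picked after their values were seen, and the second step shares its E15.5 libraries with the first. From E15.5 to E17.5, Camk2b, the calcium-dependent kinase of dendrites, went from 32.6 to 286 CPM (log2 change 3.13, adjusted p = 0.00023). The neuropeptide gene Npy went from 19.1 to 164 CPM (log2 change 3.09, adjusted p = 6.7e-06), Ryr3, the calcium release channel, from 5.22 to 29.5 CPM (log2 change 2.50, adjusted p = 0.0003), and Gad1, which makes GABA, from 5.09 to 23.2 CPM (log2 change 2.19, adjusted p = 0.00036). Sst, another interneuron peptide, had reached its level by E13.5 and stood at 281 CPM then, and went from 249 to 271 CPM (log2 change 0.12, adjusted p = 0.87). Ttr fell back from 95.3 to 2.14 CPM (log2 change -5.45, adjusted p = 1.2e-06) and Sez6 from 302 to 93.9 CPM (log2 change -1.68, adjusted p = 0.00025).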
